A study of Drosophila melanogaster with 2 samples.

Results

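Of the 30000 regions called for the transcription factor Jim in pooled data on the dm3 assembly of the fly genome, 205 (0.683%) lay on heterochromatin or unplaced sequence. They are the regions whose dm3 sequence name ends in Het (2LHet, 2RHet, 3LHet, 3RHet, XHet and YHet) or is U or Uextra, and no measured value entered that choice. The same names held 135 of 30000 regions in the list of replicate 1 and 309 of 30000 in that of replicate 3. In the IDR list, the regions that passed the authors' threshold on the irreproducible discovery rate, they held 7 of 1470. These 1470 are also the strongest 1470 of the pooled list.

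The study used chromatin immunoprecipitation with sequencing (ChIP-seq) on whole Drosophila melanogaster larvae at the wandering third-instar stage, males and females pooled. There was 1 group of 2 biological replicates, numbered 1 and 3, so no comparison between conditions was possible. The larvae stably carried a transgene for Jim, a C2H2 zinc finger protein, with GFP at its C terminus. The description names an antibody against GFP, while the antibody field names jim. The sources used here do not give what drives the transgene, whether the larvae kept their own jim gene, or how many larvae made up each replicate. Library fragments ran from 175 to 275 bp in replicate 1 and from 200 to 325 bp in replicate 3. A control experiment is named in the labels, and its values were not used here.

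Heterochromatin is the compact chromatin around centromeres and along the Y chromosome. It is rich in satellite repeats and transposons, carries methylated histone H3 lysine 9 and HP1, and holds a sparse set of working genes. In the polytene tissues of larvae it is known to be copied less than the rest of the genome. In dm3 the pericentric stretches that could be assembled form the Het sequences, scaffolds with no known place form U, and small scaffolds that could not be joined to larger ones form Uextra. In dm6 much of this sequence is part of the chromosome arms.

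The members lay mainly on the Het sequences of the large autosomes. The pooled list held 75 regions on 3LHet, 69 on 2RHet, 30 on 3RHet, 10 on 2LHet, 10 on XHet, 6 on U and 5 on Uextra. YHet, the assembled part of Y heterochromatin, had 0 in all 4 lists. Replicate 3 held 113 regions on 3LHet, 112 on 2RHet, 41 on 3RHet, 15 on XHet, 12 on 2LHet, 11 on U and 5 on Uextra. Replicate 1 held 51 on 3LHet, 37 on 2RHet, 19 on 3RHet, 8 on XHet, 8 on U, 7 on 2LHet and 5 on Uextra. Replicate 3 was the higher on each sequence with members except Uextra, where the numbers were equal. The members took 0.450% of the replicate 1 list (exact interval 0.377% to 0.532%) and 1.03% of the replicate 3 list (0.919% to 1.15%). These intervals cover counting error only, and the difference between the 2 libraries was not tested. Chromosome 4, another chromosome rich in repeats, moved the same way, with 226 regions in replicate 1 and 388 in replicate 3. X moved the opposite way, with 4522 and 3281.

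**Figure D1:**
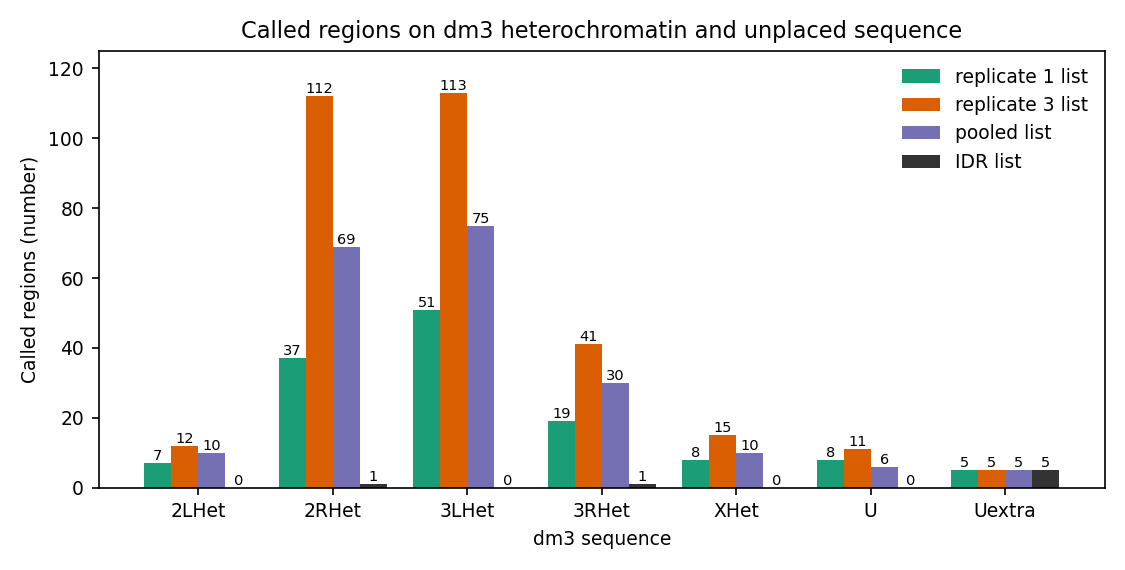
Number of called regions (vertical axis) on each dm3 sequence with members, in the list of replicate 1, the list of replicate 3, the pooled list and the IDR list. Replicate 3 exceeds replicate 1 on all but Uextra, and 5 of the 7 IDR regions stand on Uextra.

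Called regions were sparse on these sequences. Up to the last region seen in any list, the Het sequences spanned 8.62 Mb and held 22.5 pooled regions per Mb. The arms held 248 per Mb, chromosome 4 held 231, and the 1 Mb of each arm next to the centromere held 112 on average. Among those stretches the density ran from 27.0 per Mb on 3L to 287 on 3R, so the proximal arms did not share 1 level. XHet had the densest members, 118 per Mb over 0.0849 Mb, and 3RHet the sparsest of the Het sequences, 11.9 per Mb. U held 0.797 and Uextra 0.183 per Mb. The full length of each sequence was not used here, so these values are upper bounds per base of full length. The proximal stretches, set at 1 Mb each, are the exception. How much of each sequence could be covered by uniquely placed reads was not measured, so density over such sequence is not known. Of the members, 4 (1.95%) had another summit within 500 bp, all of them on 3LHet, against 12.6% of all pooled regions. Their uneven spread showed at 100 kb. The densest stretch was 3LHet from 2200001 to 2300000 with 18 of the 75 members of 3LHet, of which 9 had a replicate 3 region at the summit and 7 a replicate 1 region. On 2RHet the densest stretch ran from 2800001 to 2900000 and held 11 of 69.

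By median rank in the pooled list the members were weaker than the arms, except on Uextra, 2LHet and XHet. Signal is the deposited value of a region on the scale of the authors' caller. That scale can differ between lists, so regions are compared by rank within a list, with rank 1 the strongest. The median member stood at percentile 64.0 of the pooled list (quartiles 42.2 and 82.7), where 100 is the weakest region. The median was 49.9 for the arms, 50.5 for chromosome 4 and 56.8 for the proximal 1 Mb of the arms. In the replicate lists the median member stood at 67.6 in replicate 1 and 65.3 in replicate 3. By sequence, the pooled median was 68.9 on 3RHet, 68.7 on 3LHet, 65.0 on 2RHet, 55.4 on U, 48.5 on 2LHet and 48.2 on XHet. For XHet the replicate lists went the other way, with medians of 75.8 in replicate 1 and 52.0 in replicate 3, against 49.9 and 49.8 for the arms. 2LHet stood at 39.3 and 48.5 in them. The q-value field was below 0 for 172 members (83.9%), against 68.0% of all pooled regions. Among members its sign followed pooled rank, above 0 down to rank 9245 and below 0 from rank 10303, so this share restates the ranks. All 172 lay outside Uextra.

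**Figure D2:**
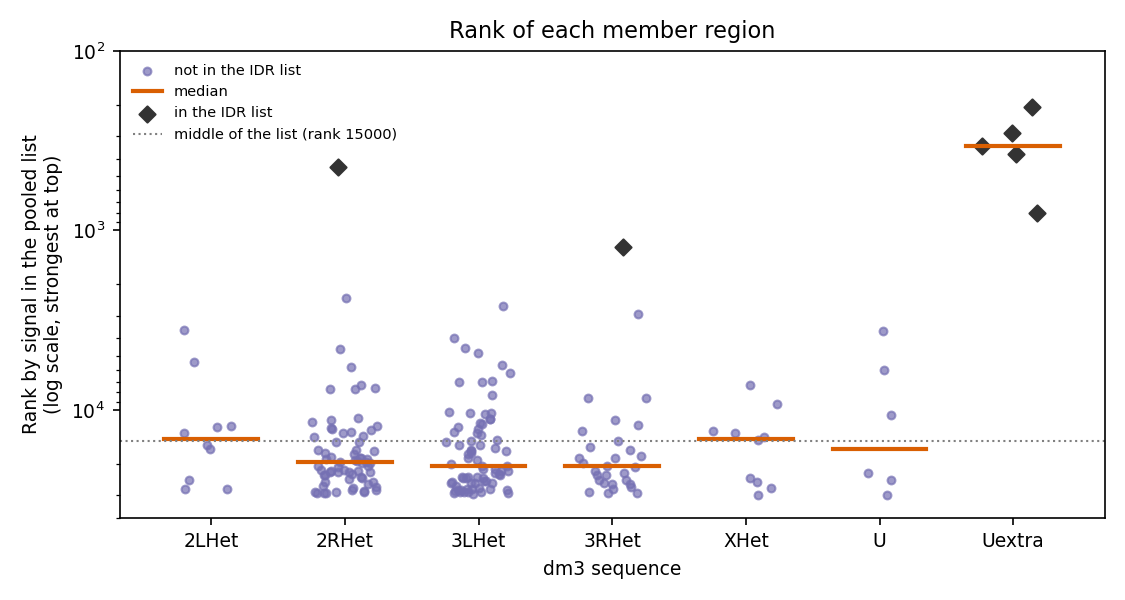
Rank by signal in the pooled list of each of the 205 members (vertical axis, log scale, strongest at the top), by dm3 sequence, with the median of each as a bar and IDR regions as diamonds. The 5 Uextra regions sit at ranks 205 to 799, apart from all but 1 of the other members.

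The 7 IDR regions were 5 on Uextra, 1 on 2RHet and 1 on 3RHet. Because the IDR list is the 1470 strongest pooled regions, shares in it restate pooled rank. Entry does not show that a given region was called in both replicates. That is 3.41% of the 205 members (exact interval 1.38% to 6.91%), where 4.90% of all pooled regions entered the IDR list. All 5 Uextra regions entered it, and 2 of the 200 members on Het sequences and U did (1.00%, 0.121% to 3.57%). Of the 294 regions of chromosome 4, 0 did, and 12 of 559 regions in the proximal 1 Mb of the arms (2.15%) did. The members of the pooled list nearest the limit of the IDR list, rank 1470, were the 3RHet region at rank 1238 inside and a 2RHet region at rank 2378 outside.

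The strongest member spanned 27346927 to 27347034 on Uextra, with a pooled signal of 135 and rank 205. Its summit lay in a region of rank 54 in replicate 3 (signal 115) and of rank 4116 in replicate 1 (signal 22.4). The second, at 2684441 to 2684700 on Uextra, had signal 122 and rank 288, with rank 96 in replicate 3 and 2407 in replicate 1. In both cases replicate 3 placed the region far above replicate 1. Next came the Uextra region at 19603823 to 19604082, of signal 116 and rank 340, with rank 74 in replicate 3 and 25134 in replicate 1. The fourth, at 17026018 to 17026277 on Uextra, had signal 111 and rank 375, with rank 98 in replicate 3, while replicate 1 had none there. The last Uextra region, at 7039433 to 7039692, had signal 83.4 and rank 799, with rank 304 in replicate 3 and 5527 in replicate 1. So 5 of 5 Uextra regions were among the 1470 strongest of replicate 3, and 0 of 5 were among the 1470 strongest of replicate 1. Their summits stood at least 2577805 bp apart in dm3 Uextra coordinates. Since Uextra is made of unjoined small scaffolds, this gives no distance in the genome. Whether the 5 regions share sequence was not tested.

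The Uextra regions of replicate 3 were also narrow. In each list nearly all regions had 1 shared width, 276 bp in replicate 3, 216 bp in replicate 1 and 260 bp in the pooled list, and only some strong regions were narrower. Replicate 3 had 56 narrower regions, of which 55 ranked in the first 100, and 5 were the Uextra regions, at 85 to 129 bp. The remaining narrower region, at rank 304, was one of these 5. The other 4 are among the 55 in the first 100, so narrow regions were common there. The median rank of the 56 was 30.5, ahead of all 5 Uextra regions. In replicate 1 all 5 Uextra regions, 4 of them at the same sites as in replicate 3, had the full 216 bp. The fifth stood at 26550233 to 26550448, at rank 10799, where neither replicate 3 nor the pooled list had a region.

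Arm regions of like pooled rank did not, as a rule, rank far higher in replicate 3 than in replicate 1. The 589 arm regions with pooled ranks of 205 to 799, the range of the Uextra regions, are set beside them. Their median replicate rank was 533.5 in replicate 3, over 568 found there, and 602 in replicate 1, over 577. At the summits of these arm regions, 0 replicate 3 regions were narrower than the shared width. A rank of 304 or better in replicate 3 together with a rank of 2407 or worse, or no region, in replicate 1 was met by 23 of the 589 (3.90%). All 5 Uextra regions meet it, but its limits were taken from them after their values were seen, so the share is a description.

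The remaining 2 IDR members lay on assembled pericentric sequence and were called in both replicates. The 2RHet region, at 1337662 to 1337921, had a pooled signal of 104 and rank 443, with rank 324 in replicate 3 (signal 63.0) and 836 in replicate 1 (signal 42.8). It was the 1 member among the 1470 strongest of both replicates. The 3RHet region, at 2474143 to 2474402, had a pooled signal of 70.8 and rank 1238, with rank 1038 in replicate 3 (signal 40.6) and 2294 in replicate 1 (signal 28.7). The 1470 strongest regions of replicate 3 covered the summits of 7 members (3.41%) and of 4.88% of all pooled regions. Those of replicate 1 covered 1 member (0.488%) and 4.66% of all. No dm3 annotation was used, so no gene is assigned to these regions.

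Below the IDR list came a 2RHet region at 471544 to 471803 (signal 52.1, rank 2378), with rank 1643 in replicate 3 and 5027 in replicate 1. Next stood a 3LHet region at 1396825 to 1397084 (signal 49.5, rank 2654), ranked 1629 in replicate 3 and 15792 in replicate 1. A 3RHet region at 1705947 to 1706206 (signal 47.7, rank 2917) was placed higher by replicate 1, at 2519, than by replicate 3, at 8356. These 3 complete the 10 strongest members. The strongest member on 2LHet, at 34739 to 34998, had rank 3584, with 3983 in replicate 1 and 7621 in replicate 3. The strongest on U, at 7531606 to 7531865, had rank 3629 and replicate 1 rank 1859, and no region of replicate 3 covered that summit. A replicate 3 region of rank 18783 held the summit of that replicate 1 region, so replicate 3 had a weak region shifted from the pooled summit. The strongest on XHet, at 76033 to 76292, had rank 7280 and was covered by neither replicate. It was also the strongest such member overall.

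**Figure D3:**
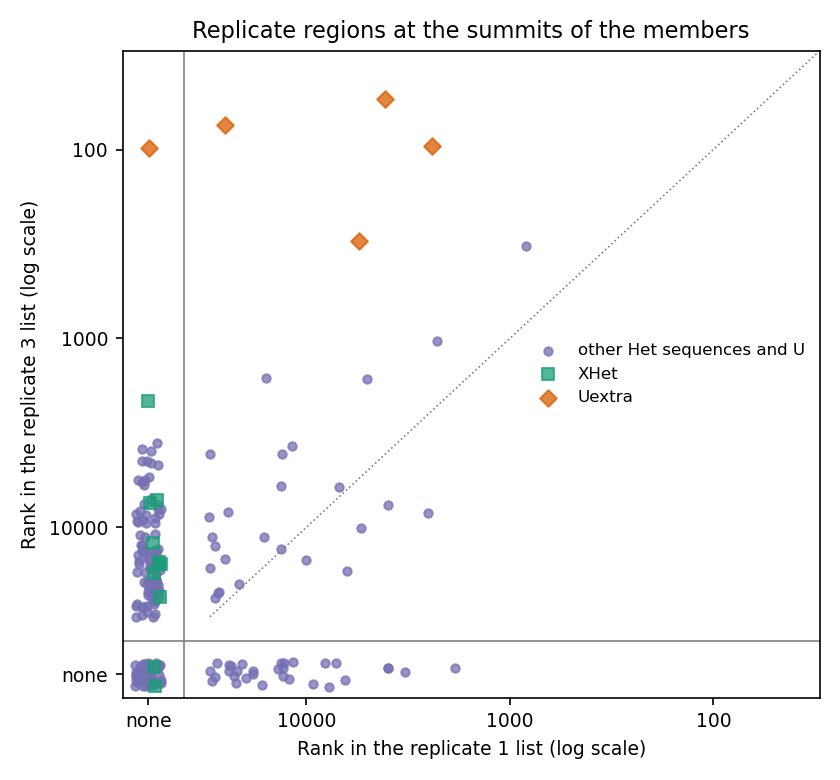
Rank of the replicate 1 region (horizontal axis) and of the replicate 3 region (vertical axis) that holds the summit of each of the 205 members, both on log scales with the strongest toward the upper right, and with a band for no region. The Uextra regions lie high in replicate 3 and low or absent in replicate 1, and no replicate 1 region holds the summit of an XHet member.

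Members were found less often in replicate 1 than pooled regions at large. A replicate was taken to hold a pooled region where 1 of its own regions covered the pooled summit. Replicate 3 held 128 of 205 members (62.4%, exact interval 55.4% to 69.1%), where it held 58.4% of all pooled regions. Replicate 1 held 61 (29.8%, 23.6% to 36.5%), where it held 50.6% of all. Both lists held 30 (14.6%, 10.1% to 20.2%), against 26.1% of all pooled regions. Replicate 3 alone held 98 (47.8%, against 32.1% of arm regions), replicate 1 alone held 31 (15.1%, against 24.6%), and 46 (22.4%, against 17.1%) were in neither. On chromosome 4 both lists held 71 of 294 (24.1%) and on the arms 7720 of 29500 (26.2%). No test of these differences between sequences was made, since regions of 1 library are not replicates of a condition.

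Weak regions were found less often on the arms too, so members are set beside arm regions of like rank. At pooled ranks 1471 to 7500, both replicates held 12 of 19 members (63.2%, 38.4% to 83.7%) and 63.3% of 5962 arm regions. At ranks 7501 to 15000 they held 7 of 45 (15.6%, 6.49% to 29.5%) and 24.5% of 7358 arm regions. At ranks 15001 to 30000 they held 5 of 134 (3.73%, 1.22% to 8.49%) and 5.31% of 14717. Shares for a single replicate count regions whether or not the other replicate held them. In replicate 1, the weakest range held 23 of 134 members (17.2%, 11.2% to 24.6%) against 32.8% of arm regions. In replicate 3 it held 75 (56.0%, 47.1% to 64.5%) against 42.9%. Chromosome 4 lay between them in that range, at 25.5% in replicate 1 and 49.0% in replicate 3.

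**Figure D4:**
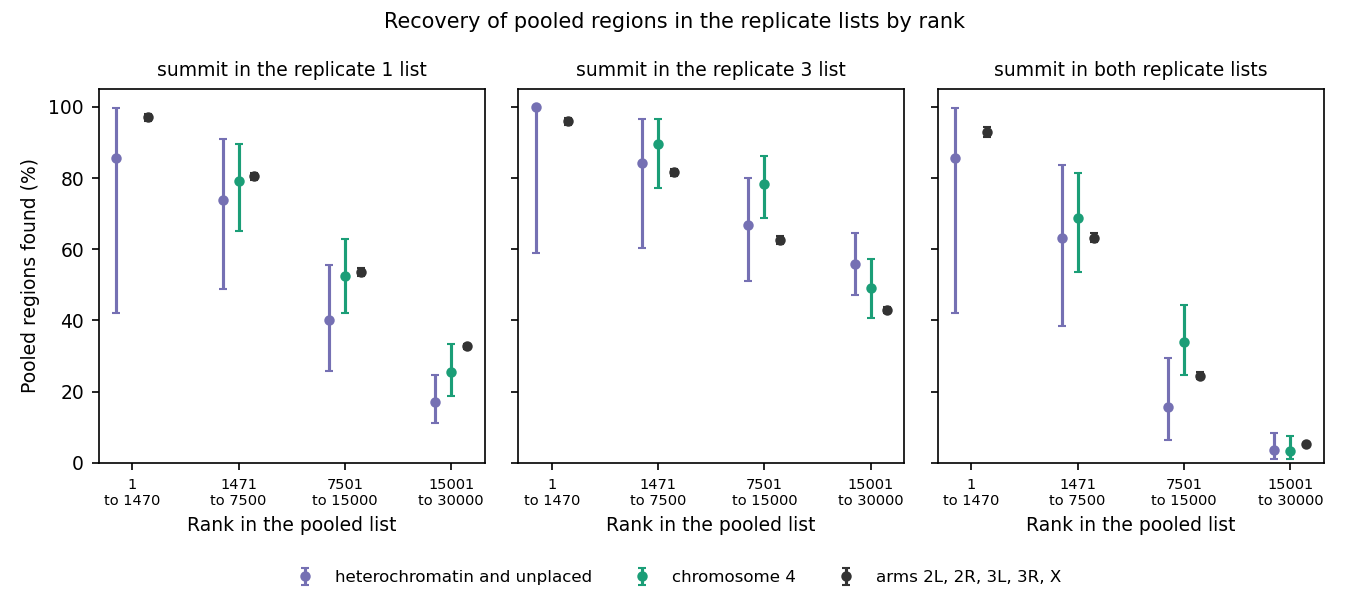
Share of pooled regions whose summit lay in the replicate 1 list, the replicate 3 list or both (vertical axis, percent), by range of pooled rank, for the members, chromosome 4 and the arms, with exact 95% intervals. In the weakest range the members fall below the arms in replicate 1 and above them in replicate 3, and chromosome 4 has no region in the first range.

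XHet, the pericentric sequence of the X chromosome, had the widest gap between replicates in the share of members found. Replicate 3 held 8 of its 10 members and replicate 1 held 0 of 10 (exact interval 0% to 30.8%). Both replicates did call XHet, with 15 regions from 4567 to 83728 in replicate 3 and 8 from 10566 to 84946 in replicate 1, and 0 summits of either list lay in a region of the other. The strongest was at rank 2153 in replicate 3 (67245 to 67520) and at rank 11459 in replicate 1 (26130 to 26345). 3RHet had 16 of 30 members in replicate 3 and 7 in replicate 1, 2RHet 46 and 15 of 69, and 3LHet 45 and 25 of 75. 2LHet, with 5 in replicate 3 and 6 in replicate 1 of 10, and U, with 3 and 4 of 6, ran the other way by a single region each.

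Counted from the replicate lists, the overlap depended on the list it was taken from. Of the 309 members of the replicate 3 list, 25 (8.09%) had their summit in a replicate 1 region, against 24.3% of that whole list. Of the 135 of replicate 1, 31 (23.0%) had theirs in a replicate 3 region, against 27.1%. Over the 30 pooled members found in both, replicate ranks had a Spearman correlation of 0.53, and 0.50 over the 26 without Uextra. This is a description across regions, which share a library pair. Replicate 3 gave the better rank in 25 of the 30, and in 52.1% of 7720 arm regions. The strongest 3LHet region differed by list, at 1396805 to 1397080 in replicate 3 (rank 1629) and at 2416684 to 2416899 in replicate 1 (rank 6911), and replicate 3 had none at the latter. The strongest 2LHet region of replicate 3, at 32775 to 33050 (rank 3699), stood beside the one of replicate 1, at 34726 to 34941 (rank 3983). On U the strongest of replicate 3 lay at 3613347 to 3613622 (rank 8534).

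In the pooled list, the numbers of regions per arm on dm6 lay within 20 of those of dm3 once the Het members were added. No coordinate was converted between the assemblies, so this is a comparison of counts by name. Both pooled lists stop at 30000 regions, so the sum over the arms was nearly fixed beforehand and only its split could differ. The counts cannot show whether the Het members themselves are among the dm6 regions. There 2R held 5690 regions on dm6, against 5618 on 2R and 69 on 2RHet of dm3, 5687 in all. For 3L the dm6 number was 6644 against a sum of 6624, for 3R 7816 against 7822, for 2L 5673 against 5676 and for X 3882 against 3885. In the replicate lists the gaps reached 40 regions, and in replicate 1 the dm6 numbers on 2L (5464) and X (4509) were below those of the dm3 arm alone (5490 and 4522). The 11 pooled regions of U and Uextra had no partner by name. The dm6 pooled list held 0 regions outside the arms and chromosome 4. The 5 Uextra regions of the IDR list had no partner by name either. Whether dm6 places any of these regions on an arm was not tested. In replicate 3, 1 region lay on the dm6 Y, at 322508 to 322767 (rank 7685).

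Genes known to lie in pericentric heterochromatin carried called regions on dm6, none of them in the IDR list. The list of 33 genes held 23 on the arms and 10 on Y, and was not matched to the dm3 Het sequences. It was chosen with earlier results of these data known. Of the 23, 20 had a summit of the pooled list inside the gene, 89 regions in all, while 44.5% of 13968 protein-coding genes had one. The listed genes are long, with a median of 35.2 kb against 2.16 kb, so that share is no like comparison. Per length, they held 27.9 regions per Mb, and 69.6 without Myo81F, an unconventional myosin gene of 1966 kb with 4 regions. The arms held 225 per Mb. None of the 33 carried an IDR region, against 5.61% of protein-coding genes, and the best rank among their regions was 2381.

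That region covered the start of Yeti (FBgn0267398, 2R), a small gene for a chromatin-associated protein. It spanned 1344911 to 1345170, 78 bp from the transcription start site (TSS), with signal 52.2, rank 2020 in replicate 3 and 4949 in replicate 1. It was the 1 region in that gene in each of the 3 lists.

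AGO3 (FBgn0250816, 3L, 23554593 to 23689640), which encodes an Argonaute of the piRNA pathway that silences transposons, held 8 regions. Its best was at 23666470 to 23666729 (signal 44.2, rank 3503), with rank 4284 in replicate 1 and 7959 in replicate 3. Dbp80 (FBgn0024804, 3L, 27279316 to 27422159), a DEAD-box RNA helicase gene, held the most, 14, and its best was at 27391984 to 27392243 (signal 42.1, rank 3979). vtd (FBgn0260987, 3L, 27136525 to 27157999), which encodes the cohesin subunit Rad21, held 4, the best of them 580 bp from a TSS (27136975 to 27137234, signal 33.9, rank 7064). In replicate 3 that summit had rank 3648 and in replicate 1 rank 29683.

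The sequence around the strongest summit of each of these 3 genes is shown because no dm3 sequence was used for the members themselves. They are examples and not the strongest of the list, since the best regions of Yeti (rank 2381) and Gprk1 (rank 6804) ranked above that of vtd (rank 7064). Each line holds 101 bases of the plus strand, 50 to each side of the summit, from RefSeq Release 6 (dm6), on chromosome 3L. Capitals mark GAGAG or its complement CTCTC, the repeat bound by GAGA factor. All other bases are printed in lower case, which carries no meaning here.
AGO3, chr3L:23666550-23666650: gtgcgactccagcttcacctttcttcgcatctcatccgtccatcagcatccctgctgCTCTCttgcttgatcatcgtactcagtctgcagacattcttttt
Dbp80, chr3L:27392064-27392164: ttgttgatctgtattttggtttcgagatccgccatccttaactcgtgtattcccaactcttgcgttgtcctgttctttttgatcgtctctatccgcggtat
vtd, chr3L:27137055-27137155: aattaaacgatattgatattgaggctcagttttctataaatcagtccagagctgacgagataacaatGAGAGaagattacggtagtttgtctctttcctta
The windows of AGO3 and vtd each hold 1 such word and that of Dbp80 holds none. Over all 89 regions in listed genes, GAGAG or CTCTC stood in 18 windows (20.2%), against 15.3% of all 30000 pooled dm6 regions. AAAAAAAA or TTTTTTTT stood in 6 (6.74%, against 8.03%) and CACACACA or TGTGTGTG in 0 (against 3.56%). Median GC content was 38.6% in the 89 windows and 42.6% in all.

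Some of these summits lay on sequence with further copies in the genome. The 31 bases at the summit occurred more than once in Release 6, unplaced scaffolds included, for 5 of the 89 regions (5.62%), against 0.320% of all pooled regions. Of the 5, 2 were in Dbp80, among them the window shown, and 1 each in rl, vtd and Myo81F, with up to 40 copies for the one in Myo81F. In 12 windows (13.5%, against 5.75%), 50% or more of the 101 bases were in lower case in the RefSeq file, which marks repeats. The share was 9.55% in the dm6 IDR list. In that file each window shown above had 0% of its bases in lower case. The sources used here do not give the treatment of reads that map to several places, and the part of repeats in the ranks was not tested.

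The other genes of the list ranged from 11 pooled regions to 0. Gprk1, a kinase gene for G protein-coupled receptors, held 11, Nipped-A, a subunit gene of histone acetyltransferase complexes, 10, and uex, a metal ion transporter gene, 7. rl, the ERK kinase gene, and p120ctn, a junction protein gene, held 5 each. Parp1, the gene of poly(ADP-ribose) polymerase, held 4, and Nipped-B, the cohesin loader gene, and lt, a vesicle trafficking gene, 3 each. RpL5, Snap25, a synaptic SNARE gene, and su(f), an RNA processing gene, held 2 each. cta, nvd, Haspin and Set1 held 1 each. nvd encodes an enzyme of ecdysone synthesis, as does spok, which had 0 in the pooled list and in both replicates. RpL15 and RpL38 had 0 in the pooled list and in replicate 1, and 2 and 1 in replicate 3. Of the 89 regions, 6 lay within 500 bp of a TSS of their gene, in RpL5 and su(f) among others. In the RpL5 region, at 22536526 to 22536785 on 2L, the summit was 6 bp from the TSS, with rank 12406.

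Replicate 3 again held more regions than replicate 1 in these genes, 124 against 71. It had a region in 21 of the 23 genes (42.5% of all protein-coding genes) and replicate 1 in 20 (51.3% of all). Set1, with 5 regions in replicate 1 and 1 in replicate 3, nvd, with 1 and 0, and Myo81F, with 4 and 3, ran the other way. The 10 genes on Y, which include the sperm dynein genes kl-2, kl-3 and kl-5 and together span 0.973 Mb, had 0 regions in all 4 lists. The others were ORY, CCY, Ppr-Y, Pp1-Y1, Pp1-Y2, ARY and WDY.

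**Figure D5:**
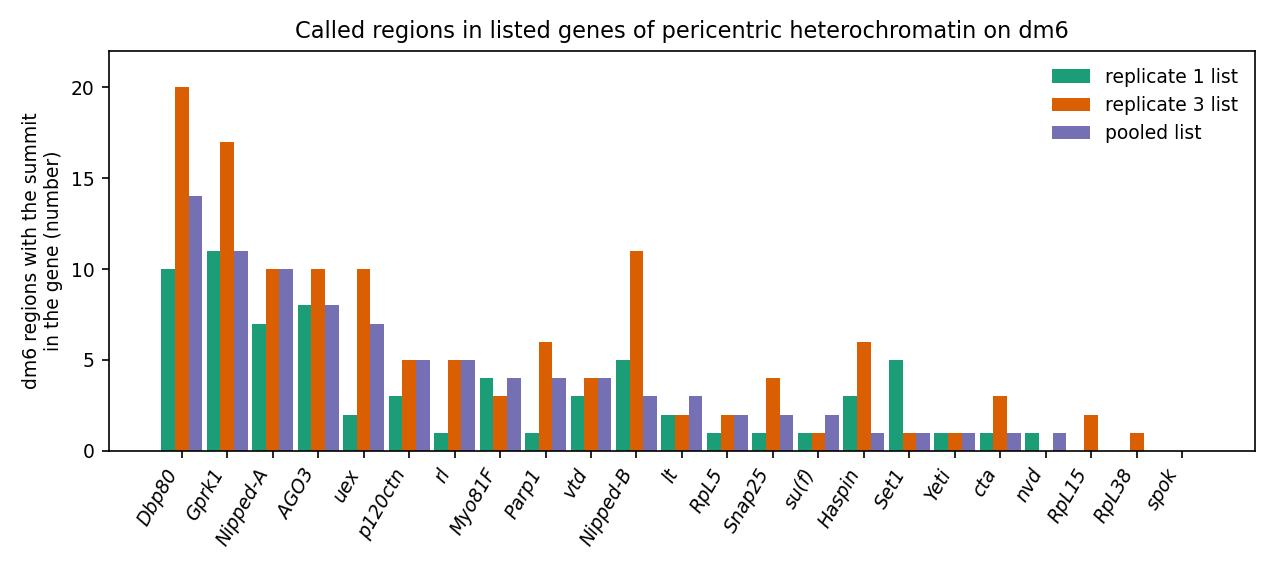
Number of dm6 regions with the summit inside each of the 23 listed genes on the arms (vertical axis), in the replicate 1, replicate 3 and pooled lists. Dbp80 holds the most pooled regions, 14, and spok has 0 in all 3.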

How the data were processed

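ChIP-seq regions of 1 group of 2 replicates were analysed. Text notes deposited by the authors derive a replicate's list from its own alignment and a further file shared by both replicates, which they also give as a source of control-normalized signal. They derive the pooled list from both alignments and that file, and the IDR list from the other 3 lists. No source used here names the aligner, the caller or the IDR threshold. The deposited signal, on the caller's scale, served to rank regions list by list. The q-value field, as deposited, was treated as a score because pooled values fall below 0. The p-value column holds 1 placeholder throughout, as deposited, and was not used. Read depth is unknown, so no floor is given.

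Regions were assigned by sequence name, and coordinates are printed from 1. Shares carry exact Clopper-Pearson intervals at 95%, which cover counting error only. No test was run, since there is 1 group. The IDR list was the 1470 strongest regions of the pooled list. Gene spans and TSSs on dm6 came from Ensembl release 115. Of the 33 genes, 31 matched by symbol and 2 through an older symbol (Parp1, Ppr-Y). All dm6 regions ended within the Release 6 chromosomes. Overlap functions were tested on simulated data and found 100% of 2999 planted answers. Regions named are all IDR members, the 10 strongest members, the strongest of each sequence in each list and the strongest in neither replicate. Genes named are those of the list. Members were taken by sequence name, and the gene list was chosen with earlier results of these data known. Where the strongest Yeti region on 2R is named, no sequence is printed. Software was matplotlib 3.10.9, scipy 1.17.1, Python 3.11.15, pandas 2.3.3 and numpy 2.4.6.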

Additional observations from a re-analysis of the deposited data

How the results depend on the processing

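Over 34 alternative settings, 21 left the value within its interval, within 1 SD of the replicates or within 1.5 times, and 13 moved it. The share of members in the list was 0.450% to 1.03% with 1 replicate left out, and 0.473% in the strongest 15000 pooled regions. The share in the IDR list ran from 0.0680% (without replicate 3) to 0.476% (without replicate 1), taken over the 1470 strongest of the list that remained. It was 0.136% on Het sequences only, and 0.136% without Uextra, a setting chosen after seeing the data. The share found in both replicates was 27.5% for the stronger members by rank. The median rank percentile was 65.3 to 67.6 in single replicates and 59.3 when ranked by the q-value field. Median width was 216 to 276 bp in single replicates. Members within 500 bp of another were 2.59% to 3.70% in single replicates, 0 within 200 bp and 20.0% within 1000 bp. Listed genes with a region numbered 20 to 21 in single replicates and 13 in the strongest 15000. Unless its construction shows it, the cause was not tested. Of the columns proposed for another ranking, 1 held a single value and gave none. No paired analysis was possible because there is 1 group.

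Read depth is unknown, the lists stop at 30000 regions, and the 7 IDR members are too few for a narrow interval. Whether the replicates come from separate larvae is known only as far as they are called biological.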
